A study of Mus musculus with 11 samples.

Results

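Ephrins are ligands anchored in the cell membrane, and EPH receptors are the receptor tyrosine kinases that bind them on neighbouring cells. The genes described here are 4 ephrin genes (*Efnb1*, *Efnb2*, *Efna2* and *Efna5*) and 6 EPH receptor genes (*Epha3*, *Epha4*, *Epha7*, *Ephb2*, *Ephb3* and *Ephb4*). They were chosen by name, and each symbol was matched to a single Ensembl identifier in the count files, so that these 10 genes were followed among the 38561 genes counted. All 10 passed the filter on low counts, which kept 17317 genes for testing.

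Ephrin-A proteins are held in the membrane by a lipid anchor and mostly bind EPHA receptors, whereas ephrin-B proteins cross the membrane and mostly bind EPHB receptors. EPHA4 is an exception in that it binds ligands of both classes. Because ligand and receptor both sit on cells, contact can signal into the receptor-bearing cell and back into the ligand-bearing cell, and it commonly leads to repulsion, cell sorting and the formation of tissue boundaries. In the face, ephrin-B1 and its receptors are known for roles in the palate and the midface, and human *EFNB1* mutations cause craniofrontonasal syndrome.

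Explants of facial processes were taken at embryonic day 10.5 from mice of mixed strain, and their total RNA was sequenced. The study asked how loss of the ligand gene *Wnt9b*, loss of the WNT agonist gene *Rspo2* and loss of both alter gene expression in the facial processes. The 11 libraries comprise 2 labelled wild type (wt), 3 labelled as homozygous *Wnt9b* mutant (Wnt9bKO), 3 as homozygous *Rspo2* mutant (Rspo2KO) and 3 as homozygous for both (DKO). Total counts per library lay between 11136166 and 18017344. Both mutations were carried in mouse lines and were not confined to the face, and the explants included mandibular, maxillary and nasal processes.

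Several libraries stood apart from their group or went against their label. The wt level of *Rspo2* was 14.8 and 16.0 CPM (counts scaled to library totals that TMM factors had adjusted), and Rspo2KO had 6.58, 4.79 and 4.73 CPM. Replicates 1, 2 and 3 of Wnt9bKO had 22.8, 2.86 and 18.1 CPM, while DKO 1, 2 and 3 had 4.17, 3.67 and 15.5 CPM. The libraries labelled Wnt9bKO 2 and DKO 3 thus went against their *Rspo2* label, and all libraries were kept under their labels. *Wnt9b* counts do not check the label, since wt had 10.8 and 13.4 CPM and Wnt9bKO had 16.2 to 23.3 CPM. *Xist*, a transcript of cells with an inactive X chromosome, reached 679 CPM or more in every wt and DKO library and 1.94 CPM or less in every Wnt9bKO and Rspo2KO library. The Y-linked gene *Ddx3y* was at 57.5 CPM or more in the latter and at 4.43 CPM or less in the former. Embryo sex and the interaction of both mutations therefore cannot be told apart in these libraries. Wnt9bKO and Rspo2KO each differ in *Xist* from wt and from DKO, so sex and genotype label cannot be told apart in those comparisons either. DKO against wt compares libraries of high *Xist* only, and comparisons averaged over the *Rspo2* or *Wnt9b* labels hold both kinds on each side. The library wt 1 held 61.2 CPM of heart muscle genes, against 3.45 to 10.4 CPM in each of the others.

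Genotypes were compared with edgeR's quasi-likelihood test on all 11 libraries, and a gene was called when its p-value, adjusted by the Benjamini-Hochberg method over the 17317 genes tested, was below 0.05. In Wnt9bKO against wt, 4 of the 10 genes were called, against 32.8% of all genes tested. *Efnb2*, *Efna5* and *Epha7* were the 3 that were higher (background 16.8% higher), and *Epha4* was lower (background 16.0% lower). In DKO against wt, *Efnb2*, *Efna5* and *Epha7* were called, all higher, against 27.5% of all genes (14.3% higher and 13.1% lower). In DKO against Rspo2KO, *Efnb1* and *Efnb2* were called, both higher, against 18.2% of all genes (9.17% higher and 9.07% lower). With loss of *Wnt9b* averaged over both *Rspo2* labels, 5 were called, against a background of 42.1%. *Efnb1*, *Efnb2*, *Efna5* and *Epha7* were higher there (background 21.5%) and *Epha4* was lower (background 20.6%). With a background this large, the share of these genes that was called lies near that of all genes, so the counts are not a result about the family, and the values of the single genes carry the description.

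The median log2 fold change of the 10 genes was 0.20 in Wnt9bKO against wt, 0.22 in DKO against wt and 0.21 in DKO against Rspo2KO, beside medians over all genes tested of 0.01, 0.01 and 0.00. With an offset for GC content and length, the medians of the 10 were 0.20, 0.10 and 0.13, beside -0.05, -0.06 and -0.02 over all genes. The 12 other ephrin and EPH genes had medians of -0.202, -0.135 and -0.0136 in these comparisons, and of -0.237, -0.106 and 0.0193 with the offset. The medians of the 10 genes thus do not describe the family. Wnt9bKO and DKO were both compared with the same 2 wt libraries, so those results share their controls. Wnt9bKO against wt and DKO against Rspo2KO share no library. Nothing in the labels says whether samples of a genotype came from separate embryos, so p-values measure only the spread between these samples. Samples of Wnt9bKO and of DKO differed in *Rspo2* and those of wt in heart muscle genes, as given above. The source of the spread was not tested.

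**Figure D1:**
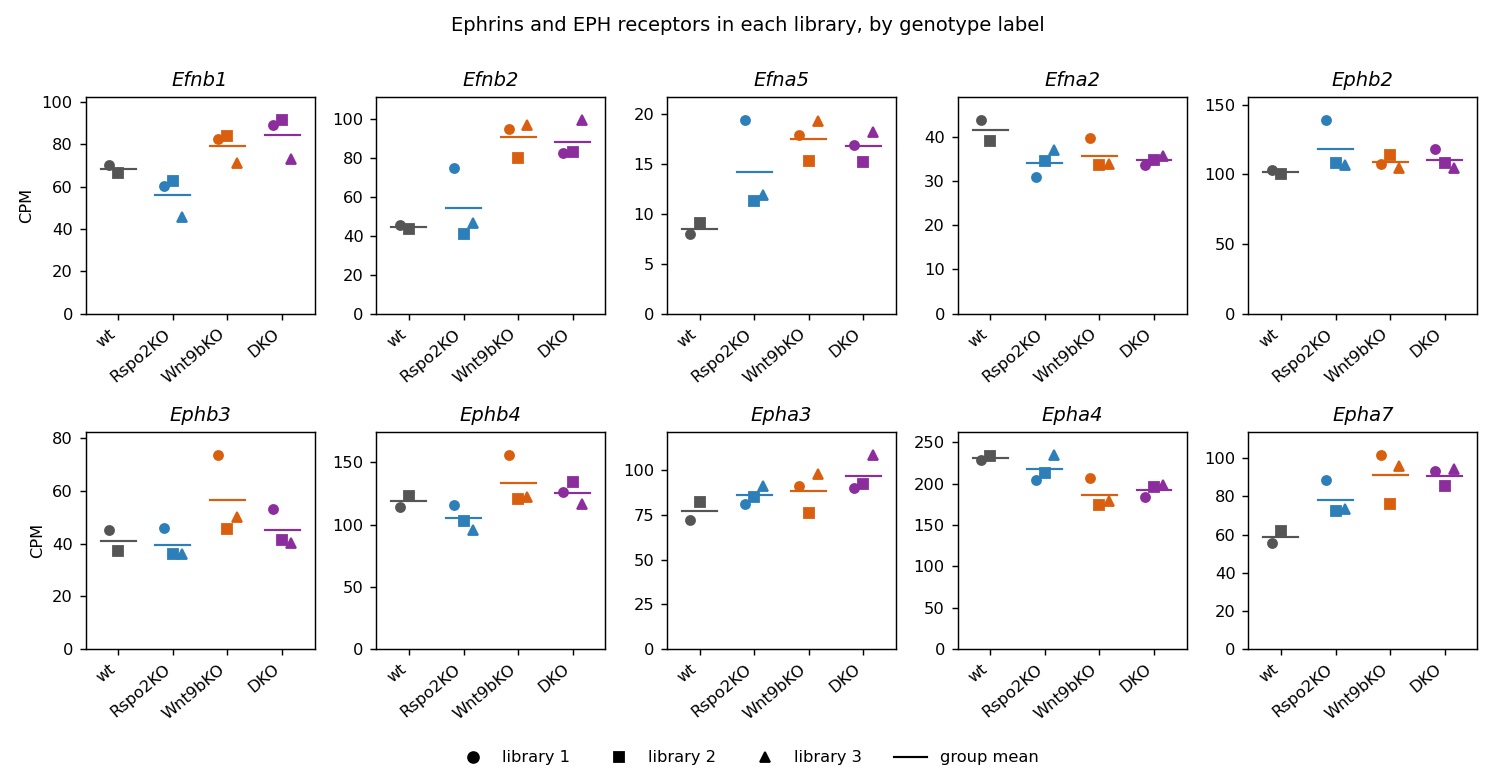
CPM of each of the 10 genes (y axis, from 0) in each of the 11 libraries, by genotype label (x axis), where symbols give the library number and bars the group means. *Efnb1* and *Efnb2* were higher in all 6 Wnt9bKO and DKO libraries than in any of the 5 others, and the library labelled Rspo2KO 1 lay above the rest of its group for *Efnb2*, *Efna5*, *Epha7* and *Ephb2*.

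Levels of different genes were compared per kb of exon, over the union of a gene's exons. Long genes were lower relative to short genes in wt than in any other library, as given below, so the order described is that of wt only. In wt, *Epha4* had the highest level of the 22 ephrin and EPH genes of the mouse, with 28.4 and 29.0 CPM per kb, followed by *Ephb4* with 24.5 and 26.6 CPM per kb. *Efnb1* (20.4 and 19.2 CPM per kb) and *Efna2* (20.6 and 18.3 CPM per kb) came next among the 10 genes, and their wt libraries overlapped. *Epha3* was at 8.31 and 9.48 CPM per kb and *Ephb2* at 8.21 and 7.94 CPM per kb. Below them, *Efnb2* (6.64 and 6.36 CPM per kb), *Ephb3* (6.80 and 5.58 CPM per kb) and *Epha7* (5.61 and 6.25 CPM per kb) overlapped in the order. *Efna5* was the lowest of the 10, with 1.99 and 2.25 CPM per kb. Summed over the 3 ephrin-B genes, the level was 45.7 and 43.0 CPM per kb in wt and 36.3 to 44.6 CPM per kb in Rspo2KO, against 51.8 to 61.4 CPM per kb in Wnt9bKO and 54.7 to 59.6 CPM per kb in DKO. The 5 ephrin-A genes together were at 51.9 and 50.7 CPM per kb in wt and at 40.1 to 49.0 CPM per kb in the 9 mutant libraries. These sums are descriptions and were not tested. RNA of whole tissue was measured, so that fewer cells of a type and less RNA per cell cannot be told apart.

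**Figure D2:**
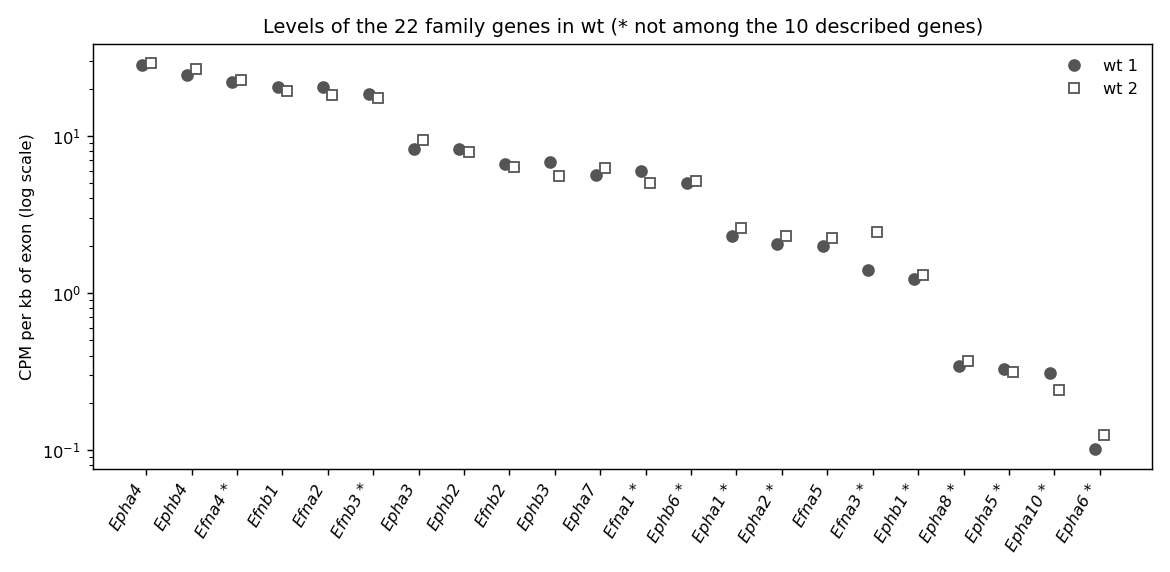
Level of the 22 ephrin and EPH genes in the 2 wt libraries, in CPM per kb of exon on a log scale (y axis), with genes ordered by their mean (x axis) and a star on the 12 genes outside the 10 described. *Epha4* and *Ephb4* lead the order, and *Efna5* is the lowest of the 10 genes.

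*Efnb2* (ENSMUSG00000001300, chromosome 8 of GRCm38 from 8617434 to 8661242) encodes ephrin-B2, a membrane-spanning ligand of EPHB4 that also marks arterial endothelium. Its level was 45.5 and 43.6 CPM in wt. In Rspo2KO 1, 2 and 3 it was 74.8, 41.2 and 46.5 CPM. It was 95.2, 80.0 and 97.3 CPM in Wnt9bKO and 82.4, 83.0 and 99.7 CPM in DKO. Every Wnt9bKO and DKO library was above every wt and Rspo2KO library, and Rspo2KO 1 lay between the 2 sets. Such a separation of the 6 libraries from the 5 was found for 20.8% of all genes tested, and for 2 of the 10 genes, *Efnb1* and *Efnb2*. The mean was 90.8 ± 9.44 CPM (SD, n = 3) in Wnt9bKO against 44.5 ± 1.37 CPM (SD, n = 2) in wt, a log2 fold change of 1.03 (95% confidence interval 0.60 to 1.46, edgeR adjusted p = 0.00161). DKO exceeded wt by a log2 fold change of 0.99 (0.56 to 1.42, edgeR adjusted p = 0.00268) and Rspo2KO by 0.71 (0.34 to 1.08, edgeR adjusted p = 0.0115). The last call was lost without Rspo2KO 2 (0.55, adjusted p = 0.0659) or without Rspo2KO 3 (0.61, adjusted p = 0.0684), and adjusted p-values over its alternatives ranged from 1.51e-06 to 0.0684.

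*Efnb1* (ENSMUSG00000031217, chromosome X from 99136130 to 99148991) encodes ephrin-B1, the ligand affected in craniofrontonasal syndrome. It was at 70.5 and 66.4 CPM in wt, 60.5, 62.6 and 45.6 CPM in Rspo2KO, 82.4, 83.8 and 71.1 CPM in Wnt9bKO and 89.0, 91.6 and 73.1 CPM in DKO. The 6 libraries of both *Wnt9b* mutant labels were again above the 5 others, but the lowest of them, at 71.1 CPM, lay close to the highest wt library. *Efnb1* rose in DKO against Rspo2KO by a log2 fold change of 0.59 (0.32 to 0.86, edgeR adjusted p = 0.00535). Against wt the estimates were 0.21 in Wnt9bKO (-0.09 to 0.51, adjusted p = 0.278) and 0.31 in DKO (0.00 to 0.61, adjusted p = 0.127), both short of the threshold in this fit. Calls against wt depended on the settings, with adjusted p-values over the alternatives from 0.0152 to 0.591 in Wnt9bKO and from 0.00654 to 0.391 in DKO, where the GC and length offset gave 0.37 (adjusted p = 0.0363). With the replicate number as a block, both passed, at 0.31 in Wnt9bKO (edgeR adjusted p = 0.0269) and 0.40 in DKO (0.00868). *Efnb1* is X-linked, and DKO differed from Rspo2KO in *Xist* as well, so the part of embryo sex in this difference cannot be told apart from that of the genotype labels. Wnt9bKO differed from wt in *Xist* the other way round, and wt and DKO both had high *Xist*.

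*Efna5* (ENSMUSG00000048915, chromosome 17 from 62604184 to 62881317) encodes ephrin-A5, a lipid-anchored ligand known for guiding axons. Its level was 8.03 and 9.05 CPM in wt and 19.5, 11.3 and 11.9 CPM in Rspo2KO 1, 2 and 3. In Wnt9bKO it was 18.0, 15.3 and 19.3 CPM, and in DKO 17.0, 15.2 and 18.3 CPM. All 9 mutant libraries were above both wt libraries, and the highest value of all was that of Rspo2KO 1. The log2 fold change against wt was 1.03 in Wnt9bKO (standard error 0.22, edgeR adjusted p = 0.00257) and 0.97 in DKO (standard error 0.22, edgeR adjusted p = 0.0048). In Rspo2KO it was 0.72 (0.26 to 1.19) with an adjusted p of 0.229. DKO and Rspo2KO differed by 0.25 (-0.14 to 0.64, adjusted p = 0.388), and by 0.53 (adjusted p = 0.0169) without Rspo2KO 1, while adjusted p-values over the alternatives ranged from 0.0169 to 0.785. The call in DKO against wt was lost without wt 1 (0.88, adjusted p = 0.0641, range over the alternatives 9.33e-06 to 0.0641).

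*Efna2* (ENSMUSG00000003070, chromosome 10 from 80179482 to 80190010) encodes ephrin-A2, another lipid-anchored ligand, and was called in none of the 8 comparisons. It was at 43.8 and 39.0 CPM in wt, 31.0, 34.5 and 37.0 CPM in Rspo2KO, 39.6, 33.7 and 33.9 CPM in Wnt9bKO and 33.6, 34.8 and 35.7 CPM in DKO. Of the 9 mutant libraries, 8 lay below both wt libraries and Wnt9bKO 1 lay between them. The log2 fold changes against wt were -0.21 in Wnt9bKO (-0.46 to 0.04), -0.28 in Rspo2KO (-0.53 to -0.03) and -0.25 in DKO (-0.50 to -0.00), with adjusted p-values of 0.185, 0.364 and 0.125. With the GC and length offset they were -0.03, -0.23 and -0.11 (edgeR adjusted p = 0.862, 0.363 and 0.463). The *Wnt9b* average of *Efna2* went from -0.09 to 0.04 (adjusted p = 0.367 and 0.657), so its direction depended on this choice.

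Upstream sequences are shown for the 3 ephrin genes called in the *Wnt9b* average and for *Efna2*, which was not called, because WNT signals act through TCF/LEF factors that bind DNA near target genes. Promoter windows from RefSeq (GRCm38.p6) were matched for all 10 genes. Each sequence below is the 250 bases before the RefSeq start, 5′ to 3′ on the strand of the gene. Capitals mark the TCF/LEF core CTTTGA or CTTTGT and the GC box GGGCGG on either strand, where the reverse forms read TCAAAG for the first core, ACAAAG for the second core and CCGCCC for the GC box. The *Efnb2* window is chr8:8661243-8661492 (minus strand), that of *Efnb1* is chrX:99135811-99136060 (plus strand), that of *Efna5* is chr17:62881318-62881567 (minus strand) and that of *Efna2* is chr10:80179232-80179481 (plus strand).
Efnb2: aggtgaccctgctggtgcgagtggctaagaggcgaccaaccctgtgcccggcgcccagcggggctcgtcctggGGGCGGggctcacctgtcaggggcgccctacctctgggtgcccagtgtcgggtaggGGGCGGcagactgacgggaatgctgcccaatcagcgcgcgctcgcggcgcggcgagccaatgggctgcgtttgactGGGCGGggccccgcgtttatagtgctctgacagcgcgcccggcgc
Efnb1: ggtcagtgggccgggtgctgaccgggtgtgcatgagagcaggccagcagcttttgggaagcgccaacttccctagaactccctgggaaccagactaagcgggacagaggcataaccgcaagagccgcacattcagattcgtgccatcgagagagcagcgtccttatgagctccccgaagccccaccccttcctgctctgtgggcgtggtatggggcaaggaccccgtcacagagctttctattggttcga
Efna5: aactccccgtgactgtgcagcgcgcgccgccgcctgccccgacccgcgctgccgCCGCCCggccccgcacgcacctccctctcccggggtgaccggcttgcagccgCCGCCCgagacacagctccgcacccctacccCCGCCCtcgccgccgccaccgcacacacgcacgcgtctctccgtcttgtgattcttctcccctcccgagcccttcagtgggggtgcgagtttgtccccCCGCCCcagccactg
Efna2: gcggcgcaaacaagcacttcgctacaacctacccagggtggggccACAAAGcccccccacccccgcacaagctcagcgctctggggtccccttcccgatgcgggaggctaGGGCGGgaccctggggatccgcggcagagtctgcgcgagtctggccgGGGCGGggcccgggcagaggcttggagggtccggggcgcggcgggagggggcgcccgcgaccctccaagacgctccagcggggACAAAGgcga
The GC box letters were present 3 times before *Efnb2*, 4 times before *Efna5*, 2 times before *Efna2* and 0 times before *Efnb1*, and 32.7% of the 32851 windows of this length held them at least once. CTTTGT occurred 2 times before *Efna2*, and neither core occurred before *Efnb1*, *Efnb2* or *Efna5*. CTTTGA was held by 13.8% of all windows, CTTTGT by 16.5% and either by 27.6%. The windows of the 6 receptor genes held neither core. A match describes the letters only, and the absence of a match concerns only these 250 bases.

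Among the receptors, *Epha7* (ENSMUSG00000028289, chromosome 4 from 28813131 to 28967499) encodes a receptor of ephrin-A ligands, ephrin-A5 among them, that takes part in closure of the neural tube. It was at 55.4 and 61.7 CPM in wt, 88.7, 72.2 and 73.6 CPM in Rspo2KO, 102, 75.8 and 96.2 CPM in Wnt9bKO and 93.2, 85.4 and 94.2 CPM in DKO. Every mutant library was above both wt libraries, and Rspo2KO 1 overlapped the Wnt9bKO and DKO libraries. *Epha7* rose in Wnt9bKO by a log2 fold change of 0.64 (0.35 to 0.93, edgeR adjusted p = 0.00277) and in DKO by 0.63 (0.34 to 0.92, edgeR adjusted p = 0.0037). The DKO call was lost without wt 1 (0.55, adjusted p = 0.0629, range over the alternatives 6.79e-05 to 0.0629). In Rspo2KO against wt the estimate was 0.41 (0.12 to 0.70, adjusted p = 0.268).

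*Epha4* (ENSMUSG00000026235, chromosome 1 from 77367185 to 77515088), the receptor of both ligand classes and the gene of the family with the highest wt level per kb, was the 1 gene of the 10 that was called lower. Its level was 228 and 234 CPM in wt, 205, 213 and 234 CPM in Rspo2KO, 206, 175 and 179 CPM in Wnt9bKO and 184, 196 and 198 CPM in DKO. All Wnt9bKO and DKO libraries lay below both wt libraries, while Wnt9bKO 1 was above Rspo2KO 1. The log2 fold change against wt was -0.31 in Wnt9bKO (-0.54 to -0.08, edgeR adjusted p = 0.0372) and -0.26 in DKO (-0.49 to -0.04, adjusted p = 0.0803). The Wnt9bKO call was a narrow one that held in 10 of 22 refits, with adjusted p-values from 0.00323 to 0.153. It was lost without wt 1 (-0.33, adjusted p = 0.104), wt 2 (-0.30, 0.153), Rspo2KO 2 (-0.28, 0.0617), Wnt9bKO 2 (-0.24, 0.136), Wnt9bKO 3 (-0.25, 0.136), DKO 1 (-0.31, 0.0508) or DKO 2 (-0.31, 0.0555). The DKO estimate passed in 5 of 22 refits, among them the fit without Wnt9bKO 1 (-0.26, adjusted p = 0.0499), DESeq2 (-0.27, 0.0462), a fit of the compared groups alone (-0.27, 0.043) and the GC and length offset (-0.43, 0.00735), over a range of 0.00735 to 0.255. Averaged over both *Rspo2* labels, *Epha4* fell by 0.24 on the log2 scale (edgeR adjusted p = 0.014), with a loss of the call without Wnt9bKO 3 (-0.20, adjusted p = 0.0541, range 0.000939 to 0.0541).

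*Epha3* (ENSMUSG00000052504, chromosome 16 from 63543534 to 63864175), a receptor with high affinity for ephrin-A5, ranged from 72.2 to 82.4 CPM in wt and from 76.2 to 109 CPM in the mutant libraries. Its log2 fold changes against wt were 0.19 in Wnt9bKO, 0.15 in Rspo2KO and 0.33 in DKO, and none passed the threshold with all libraries included (adjusted p = 0.257, 0.672 and 0.0705). Without Wnt9bKO 2 the DKO estimate passed (0.35, adjusted p = 0.0329, range over the alternatives 0.0329 to 0.591), as did the average over both *Rspo2* labels (0.25, adjusted p = 0.0203, range 0.0203 to 0.68). The DKO estimate also passed with upper-quartile factors (0.35, adjusted p = 0.0481) and with a fit of the compared groups alone (0.32, 0.0476). With the GC and length offset it was 0.14 (adjusted p = 0.399), and the average went from 0.18 to 0.07 (adjusted p = 0.0962 and 0.511).

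The EPHB receptors bind ephrin-B ligands. *Ephb2* (ENSMUSG00000028664, chromosome 4 from 136647539 to 136835988) and *Ephb3* (ENSMUSG00000005958, chromosome 16 from 21204755 to 21223305) are known to act together in palate formation, and *Ephb4* (ENSMUSG00000029710, chromosome 5 from 137350109 to 137378669) is the receptor of ephrin-B2 in veins. In the fit described above, none of the 3 was called in any of the 8 comparisons, but calls of *Ephb3* and *Ephb4* depended on settings and on single libraries. *Ephb2* depended on settings too. With the GC and length offset it was called lower in the average (-0.26, edgeR adjusted p = 0.00443) and in Wnt9bKO against wt (-0.30, 0.0275). *Ephb2* was at 104 and 100.1 CPM in wt, 104 to 119 CPM in Wnt9bKO and DKO, 107 and 108 CPM in 2 of the Rspo2KO libraries and 139 CPM in Rspo2KO 1, the highest value of all. *Ephb3* was at 45.2 and 37.1 CPM in wt, 45.9, 36.2 and 35.9 CPM in Rspo2KO, 73.5, 45.7 and 50.2 CPM in Wnt9bKO and 53.2, 41.4 and 40.4 CPM in DKO. The library numbered 1 was thus the highest in each of the 4 groups. The averaged estimate of *Ephb3* was 0.33 (0.05 to 0.61, adjusted p = 0.0549), and it passed without Rspo2KO 1 (0.39, adjusted p = 0.0293), Wnt9bKO 2 (0.42, 0.0175) or Wnt9bKO 3 (0.39, 0.0402), with no filter on low counts (0.33, 0.00376) and by DESeq2 (0.32, 0.0489), over a range of 0.0026 to 0.221. It also passed with the replicate number as a block (0.35, edgeR adjusted p = 0.0026), while the GC and length offset gave 0.20 (0.115). In Wnt9bKO against wt its estimate of 0.46 (adjusted p = 0.0826) passed without Wnt9bKO 2 (0.62, adjusted p = 0.0293) and with no filter (0.47, 0.00957), over a range of 0.00496 to 0.409. There too it passed with the block (0.50, edgeR adjusted p = 0.00496), and the offset gave 0.27 (0.166). *Ephb4* was at 114 and 123 CPM in wt, 95.6 to 116 CPM in Rspo2KO, 156, 121 and 123 CPM in Wnt9bKO and 126, 134 and 117 CPM in DKO. Its averaged estimate was 0.21 (0.03 to 0.40, adjusted p = 0.0578), and it passed without Rspo2KO 1 (0.25, adjusted p = 0.0253), Wnt9bKO 2 (0.27, 0.0266) or Wnt9bKO 3 (0.26, 0.0367). It also passed with upper-quartile factors (0.23, 0.046), with at least 10 counts per library (0.22, 0.0494) and with the block (0.24, 0.0217). With an offset for GC content and length it passed too (0.19, 0.0206), and the range was 0.0162 to 0.211. That offset also passed *Ephb4* in DKO against Rspo2KO (0.24, adjusted p = 0.0449, range 0.0393 to 0.378), where the estimate without it was 0.26 (adjusted p = 0.131).

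**Figure D3:**
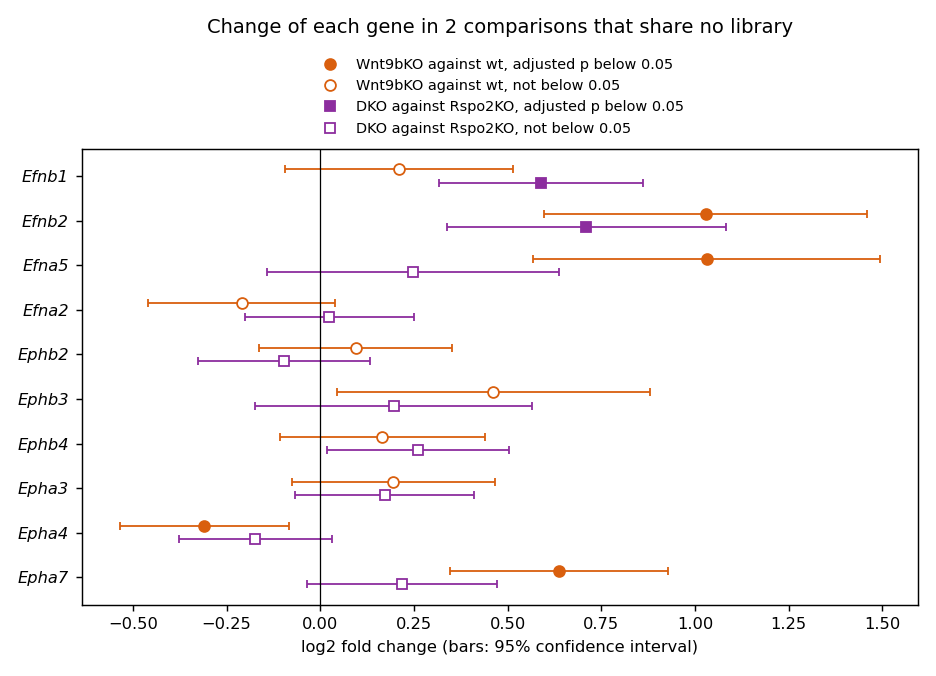
Log2 fold change of each gene (x axis) with its 95% confidence interval in Wnt9bKO against wt (circles) and DKO against Rspo2KO (squares), filled where the edgeR adjusted p was below 0.05. *Efnb2* is the 1 gene called in both, at 1.03 and 0.71, and *Efna5* has an interval above 0 in the first and of -0.14 to 0.64 in the second.

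In the pair of comparisons that share no library, the estimates under the *Wnt9b* labels were 1.03 and 0.71 for *Efnb2*, 0.21 and 0.59 for *Efnb1*, 1.03 and 0.25 for *Efna5*, 0.64 and 0.22 for *Epha7*, and -0.31 and -0.17 for *Epha4*. Both comparisons also set libraries of high and low *Xist* against each other, in opposite directions. The difference between the 2 estimates of a gene is the interaction of both mutations. It was -0.78 for *Efna5* (-1.39 to -0.18, edgeR adjusted p = 0.435), -0.42 for *Epha7* (-0.80 to -0.04, adjusted p = 0.496), 0.38 for *Efnb1* (-0.03 to 0.79, adjusted p = 0.553) and -0.32 for *Efnb2* (-0.88 to 0.24, adjusted p = 0.72). By edgeR, 0 of the 10 genes had an interaction past the threshold, against 0.0635% of all genes tested, and 2 had an unadjusted p below 0.05 (1635 over all genes), while DESeq2 called 0 (0.103% of all genes).

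Calls over all genes under the *Rspo2* label depended on the tool and the filter. In Rspo2KO against wt, edgeR called 0 of the 10 genes (0.0346% of all genes), with an unadjusted p below 0.05 for 3 of them (*Efna2*, *Efna5* and *Epha7*) and for 2069 of the 17317 genes tested. DESeq2 called 0 of the 10, against 0.637% of the 28088 genes it tested, and edgeR with no filter on low counts called 2.04% of all genes, *Efna5* among them (0.73, adjusted p = 0.0119, range over the alternatives 0.0119 to 1). DKO against Wnt9bKO gave 0 calls among the 10 (0.121% of all genes), 0 unadjusted p-values below 0.05 (975 over all genes) and 0 calls by DESeq2 (0.313% of all genes). Estimates in that comparison lay between -0.33 (*Ephb3*) and 0.13 (*Epha3*). Averaged over both *Wnt9b* labels, loss of *Rspo2* gave 0 calls among the 10 (0.0635% of all genes), 2 unadjusted p-values below 0.05 (*Efna5* and *Epha7*, with 1625 over all genes) and 0 calls by DESeq2 (0.363% of all genes). The latter 2 comparisons hold the libraries labelled Wnt9bKO 2 and DKO 3. Without both of them the counts were again 0, and the counts under the *Wnt9b* labels were 4 in Wnt9bKO against wt (29.7% of all genes), 3 in DKO against wt (25.6%), 2 in DKO against Rspo2KO (16.7%) and 7 in the average (40.2%). The 4 were not the same genes as with all libraries, since *Epha4* was lost (-0.27, adjusted p = 0.11, range over the alternatives 0.00323 to 0.153) and *Ephb3* gained (0.59, adjusted p = 0.0357, range 0.00496 to 0.409).

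Other properties of the libraries moved with the *Wnt9b* labels. Small nuclear RNAs took 352 to 419 CPM in wt and Rspo2KO but 70.1 to 82.7 CPM in Wnt9bKO and DKO. Long genes (exon length of at least 7689 bases) were lower relative to short genes (at most 3250 bases) in wt, by a median log2 difference of -0.34 and -0.32 from the mean of all libraries, whereas the difference was 0.22, 0.28 and 0.19 in Wnt9bKO and 0.18, 0.11 and 0.07 in DKO. In Rspo2KO 1, 2 and 3 it was 0.07, -0.28 and -0.18, so that Rspo2KO 1 lay at the level of DKO 3. Rspo2KO 1 also lay near the *Wnt9b* mutant libraries for *Efna5* and *Epha7*, and a link with this difference was not tested. *Ephb2*, *Epha7*, *Epha3* and *Epha4* have exon lengths of 12608, 9884, 8692 and 8054 bases and are among the long genes, while *Efna2*, at 2131 bases, is a short one. *Efna5*, at 4032 bases, is in neither set.

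With an offset for GC content and length in each library, the averaged log2 fold change went from 0.87 to 0.78 for *Efnb2*, from 0.40 to 0.46 for *Efnb1*, from 0.64 to 0.61 for *Efna5* and from 0.43 to 0.30 for *Epha7*. These 4 genes remained called, with adjusted p-values of 0.00012, 0.000518, 0.00309 and 0.0126. *Epha4* moved from -0.24 to -0.36 (adjusted p = 0.000939). *Ephb2* went from -0.00 (adjusted p = 0.99) to -0.26 (adjusted p = 0.00443), and in Wnt9bKO against wt it went from 0.09 to -0.30 (adjusted p = 0.0275), so that the direction of *Ephb2* depended on this choice. Over their alternatives the adjusted p-values of *Ephb2* ranged from 0.00443 to 1 in the average and from 0.0275 to 0.808 in Wnt9bKO against wt. With the offset the 10 genes split into 3 higher and 2 lower in Wnt9bKO against wt (14.1% and 19.7% of all genes) and 4 higher and 1 lower in DKO against wt (11.4% and 18% of all genes). The offset removes any difference between libraries that goes with length or GC content, whatever its source, and what part the library differences had in the calls was not tested beyond it.

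**Figure D4:**
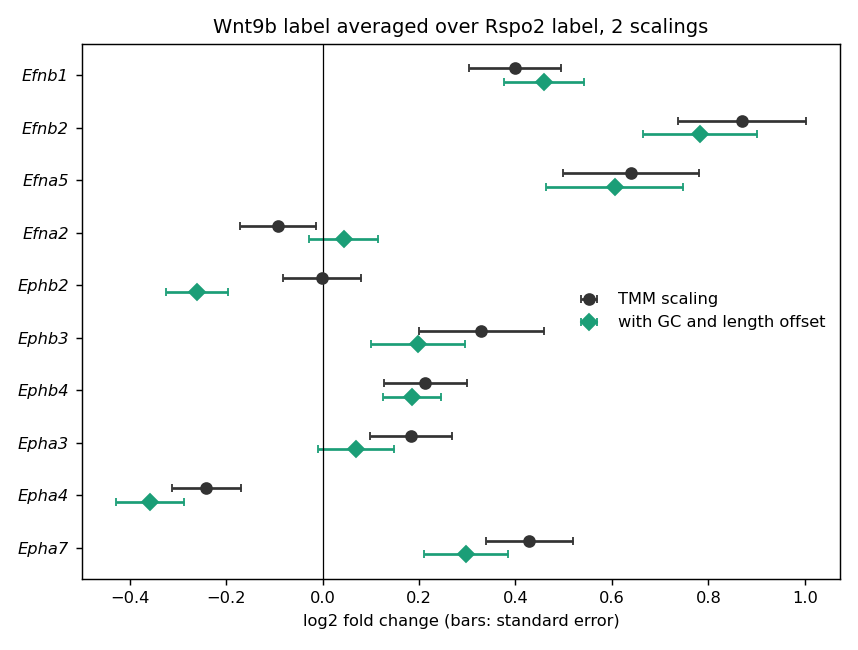
Log2 fold change of each gene (x axis, bars give the standard error) for loss of *Wnt9b* averaged over both *Rspo2* labels, with TMM scaling (circles) and with an added offset for GC content and length (diamonds). *Efnb1*, *Efnb2*, *Efna5* and *Epha7* stay above 0 with both, and *Ephb2* moves from -0.00 to -0.26.

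Of the 12 other ephrin and EPH genes, 6 were called with loss of *Wnt9b* averaged over both *Rspo2* labels, 2 higher and 4 lower, against 42.1% of all genes. The EPHB receptor gene *Ephb1* was higher, with 8.66 and 9.11 CPM in wt, 20.8, 12.3 and 12.6 CPM in Rspo2KO, 18.1, 19.8 and 17.9 CPM in Wnt9bKO and 18.6, 18.5 and 13.3 CPM in DKO. All 9 mutant libraries were above wt, and Rspo2KO 1 was the highest, the same library as for *Efna5* and *Ephb2*. Its averaged log2 fold change was 0.61 (0.29 to 0.92, edgeR adjusted p = 0.00402). *Epha5*, a receptor of ephrin-A ligands, was higher by 0.44 (adjusted p = 0.0218). *Efna1*, *Efna4*, *Epha1* and *Epha8* were lower, with estimates of -0.35, -0.26, -0.37 and -0.94 (adjusted p = 0.0281, 0.0242, 0.0172 and 0.0104). *Epha8* was at 1.75 CPM or less in every library. With the GC and length offset, *Efna1* (-0.22, adjusted p = 0.12), *Efna4* (-0.11, adjusted p = 0.223) and *Epha5* (0.21, adjusted p = 0.219) no longer passed, while *Efnb3* (0.25, adjusted p = 0.0134) did. *Efna1*, *Efna3* and *Efna4* lie side by side on chromosome 3 between 89271733 and 89338028, and *Efna3* had an estimate of -0.35 (adjusted p = 0.139). *Epha1*, at a mean of 6.87 CPM, overlaps *Zyx* on the opposite strand, which had 31 CPM on average. Since the strand used in counting is not given, the *Epha1* values are uncertain. The remaining genes, *Efnb3*, *Epha2*, *Epha6*, *Epha10* and *Ephb6*, were not called there without the offset, with estimates from -0.15 to 0.61. In DKO against Rspo2KO, edgeR and DESeq2 each called 0 of the 12 (18.2% and 11.3% of all genes), and 2 had an unadjusted p below 0.05 (5433 of the 17317 genes tested). With the offset edgeR called *Efnb3* (0.34, adjusted p = 0.0259) and *Epha8* (-1.17, adjusted p = 0.0239) there, against 19.7% of all genes.

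Among 31 genes whose products act with ephrins or EPH receptors, such as kinases, adaptors, exchange factors and phosphatases, 17 were called with loss of *Wnt9b* averaged over both *Rspo2* labels, 14 higher and 3 lower, against 42.1% of all genes (21.5% higher and 20.6% lower). In DKO against Rspo2KO, 8 were called, 6 higher and 2 lower, against 18.2% of all genes (9.17% higher and 9.07% lower). The median log2 fold change of the list was 0.12 in the average, beside 0.02 over all genes tested. The smallest adjusted p-values among the higher genes belonged to *Rasa1*, a GTPase-activating protein for RAS, *Crkl*, an adaptor, and *Tiam1*, an exchange factor for RAC. *Crkl* was at 46.1 and 37.0 CPM in wt, 68.8, 39.1 and 46.2 CPM in Rspo2KO, 84.3, 97.0 and 90.3 CPM in Wnt9bKO and 89.0, 87.7 and 87.1 CPM in DKO. The *Wnt9b* mutant libraries were all above the others, and Rspo2KO 1 again lay highest among the rest. The averaged log2 fold changes were 0.71 for *Rasa1*, 0.95 for *Crkl* and 0.79 for *Tiam1* (edgeR adjusted p = 2.99e-05, 3.46e-05 and 3.55e-05). The 3 lower genes were *Crk*, the adaptor paralogous to *Crkl*, *Acp1*, a phosphatase that acts on EPH receptors, and *Sdcbp*, a PDZ protein that binds ephrin-B tails. *Crk* was at 244 and 218 CPM in wt, 188, 215 and 224 CPM in Rspo2KO, 137, 133 and 149 CPM in Wnt9bKO and 134, 140 and 156 CPM in DKO, with no overlap between the *Wnt9b* mutant libraries and the others. *Crk* fell by 0.64 on the log2 scale, *Acp1* by 0.53 and *Sdcbp* by 0.28 (edgeR adjusted p = 1.54e-05, 0.000451 and 0.0103). These 6 genes kept their direction and their call with the GC and length offset, but the balance of the list did not hold. With the offset, 10 of the 31 were called higher and 8 lower in the average, against 18.8% and 24.2% of all genes, and the median of the list was 0.02 beside -0.03 over all genes.

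For each of the 10 genes, the protein-coding gene outside the family with the most similar profile was found by Pearson's r of log2 CPM over the 11 libraries, among 9490 genes with a mean of at least 10 CPM. The r values are descriptions, since the libraries fall into sets by label. *Phactr4* was most like *Efna5* (r = 0.993), *Phf2* most like *Efnb2* (r = 0.992), *Slc35f5* most like *Epha4* (r = 0.979), *Synpo* most like *Epha7* (r = 0.977) and *Tepsin* most like *Efnb1* (r = 0.957). *Phactr4* was at 14.3 and 17.6 CPM in wt and 48.3, 21.8 and 24.7 CPM in Rspo2KO, with 32.6 to 44.3 CPM in Wnt9bKO and DKO. It shared with *Efna5* the high value in Rspo2KO 1. For the other genes the closest were *Cep131* for *Ephb4* (r = 0.954), *Mafg* for *Ephb3* (r = 0.938), *Necap2* for *Efna2* (r = 0.933), *Zfp319* for *Ephb2* (r = 0.911) and *Dync2li1* for *Epha3* (r = 0.883).

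Markers of tissues that express ephrins were read in the same libraries. The 8 endothelial genes, with *Kdr* the most abundant, summed to 209 and 193 CPM in wt, against 209 to 241 CPM across mutants, with 3 higher and 3 lower under the *Wnt9b* average, where 21.5% of all genes tested were higher and 20.6% lower. The 9 facial mesenchyme genes, led by *Prrx1*, were present in every library, at sums of 1182 and 1100 CPM in wt, 866, 830.3 and 904 CPM in Rspo2KO, 1387, 773 and 1063 CPM in Wnt9bKO and 978, 908 and 1008 CPM in DKO. Under the *Wnt9b* average, 1 of these was higher and 1 lower. The 7 surface epithelium genes, led by *Krt8*, summed to 198 to 236 CPM over all libraries, with 4 higher and 1 lower. The 6 erythroid genes, led by *Hbb-y*, summed to 3936 to 5751 CPM in wt and Rspo2KO but to 1738 to 2843 CPM in Wnt9bKO and DKO, with 5 lower. The 7 forebrain and eye genes, led by *Pax6*, summed to 80.9 to 107 CPM in wt and Rspo2KO, to 106, 214 and 144 CPM in Wnt9bKO and to 129 to 145 CPM in DKO, with 6 higher. The 8 neuronal genes, led by *Tubb3*, summed to 499 and 572 CPM in wt, against 331 to 743 CPM across mutants, with 1 higher and 1 lower. None of the genes in these 6 lists was at 0 in any library. Of the 7 heart muscle genes, led by *Actc1*, 3 passed the filter, all 3 lower under the *Wnt9b* average, and 2 were at 0 in at least 1 library. These 7 genes summed to 61.2 CPM in wt 1 but to 8.75 CPM in wt 2. The sums were 7.83 to 10.4 CPM in Rspo2KO and 3.45 to 7.66 CPM in Wnt9bKO and DKO. The part of these cell types in the differences of the ephrin and EPH genes was not tested.

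**Figure D5:**
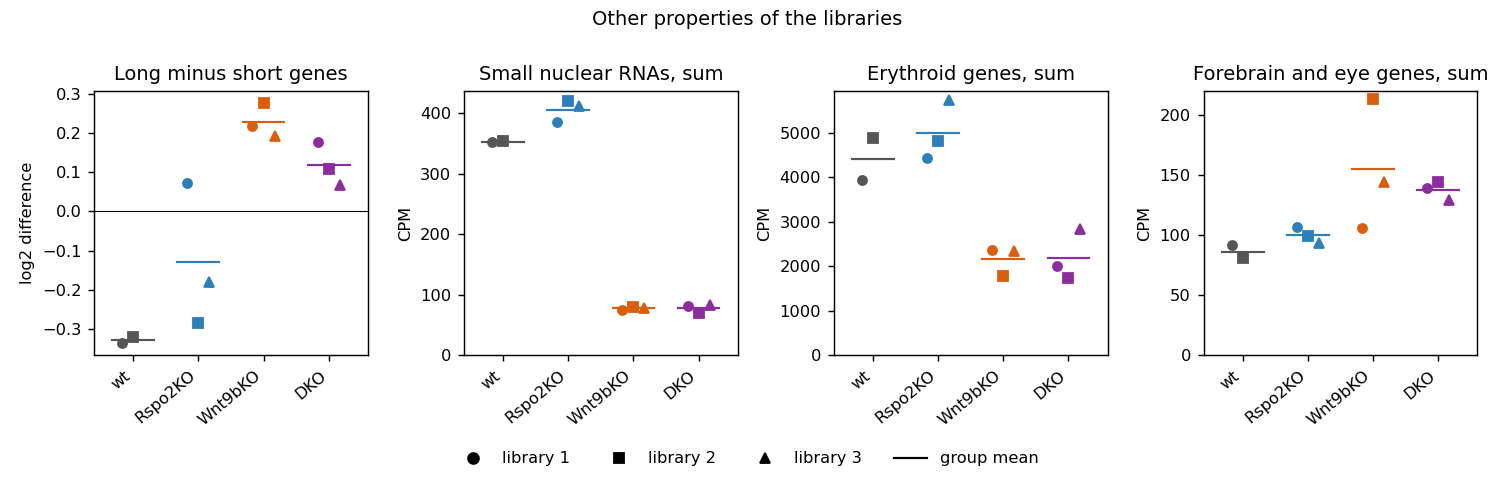
Properties of the 11 libraries by genotype label, as the median log2 difference of long and short genes and the summed CPM of small nuclear RNAs, erythroid genes, and forebrain and eye genes (y axes), where bars give group means. Small nuclear RNAs and erythroid genes were lower in all Wnt9bKO and DKO libraries than in the others, and Rspo2KO 1 lay apart from its group for long and short genes.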

How the data were processed

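RNA of facial process explants was sequenced in 11 libraries of 4 genotype labels. The authors deposited counts per Ensembl gene, not normalized. By the study's methods and the submitters' processing notes, single-end reads were trimmed with cutadapt, mapped to GRCm38 with STAR and counted with HTSeq, with versions and strand setting not given in the sources used here. The study describes 3 samples per genotype, and 2 wt libraries were analysed here. The 10 genes and all gene lists were chosen with earlier results of these data known.

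Genes were named and placed with the GENCODE annotation of GRCm38, which matched 36723 of 38561 identifiers. Counts were filtered with filterByExpr, scaled by TMM factors and fitted with a mean per genotype in edgeR 4.0.16 (limma 3.58.1, R 4.3.3), and 17317 genes were tested with the two-sided quasi-likelihood test. The study's rule was p below 0.05 with more than 1.5-fold change by DESeq2, and its text does not say whether p was adjusted. Here the Benjamini-Hochberg adjusted p had to be below 0.05, with no fold threshold. Confidence intervals are at 95%. Exon lengths are the union of a gene's exons. The fit was tested on simulated data. Promoter letters were searched with Python 3.11.15 and pandas 2.3.3, and figures drawn with matplotlib 3.10.9.

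Alternatives were DESeq2 1.42.0, RLE and upper-quartile factors, fits of the compared groups alone, a replicate block, filters set aside or raised to 10 counts per library, a loess offset (span 0.3) on GC content and length, fold thresholds, and leaving out libraries. GC content was known for 98.3% of the genes tested. Named were the 10 genes, the 12 others of the family, up to 3 signalling partners per direction with the smallest adjusted p in the *Wnt9b* average, *Rspo2*, *Wnt9b*, *Xist* and *Ddx3y*, and for each of the 10 the gene with the highest r. The most abundant gene of each marker list and *Zyx* were named after their values were seen. Replicates of each group differed by more than sampling noise.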

Additional observations from a re-analysis of the deposited data

How the results depend on the processing

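Of 14 calls of a single gene in a single comparison, 9 held in every refit: *Efnb2*, *Efna5* and *Epha7* in Wnt9bKO against wt, *Efnb2* in DKO against wt, *Efnb1* in DKO against Rspo2KO, and *Efnb1*, *Efnb2*, *Efna5* and *Epha7* in the *Wnt9b* average. Shares in brackets are of all genes tested in the same refit. Without a filter on low counts, Rspo2KO against wt gave 1 call (*Efna5*, 2.04%, against 0.0346% with the filter). With an unadjusted p and 1.5-fold, Rspo2KO against wt (4.68%) and the interaction (5.85%) each gave 1. The 1.5-fold threshold left 2 calls in the *Wnt9b* average, *Efnb2* and *Efna5*, with p adjusted (17.4%) or unadjusted (18.9%). *Efnb1* and *Epha7*, though called in every refit of that average, fell short of 1.5-fold. DKO against wt gave 5 with only the groups compared (34.6%) and 5 with the GC and length offset (29.4%). Leaving out 1 library at a time gave 1 (without wt 1, 12.7%) to 4 calls (without Wnt9bKO 1, 31.7%, or Wnt9bKO 2, 28.6%) in DKO against wt, 1 (without Rspo2KO 2, 1723 of 17208 genes, or without Rspo2KO 3, 9.75%) to 3 (without Rspo2KO 1, 23.2%) in DKO against Rspo2KO and 5 to 8 (without Wnt9bKO 2, 41.4%) in the *Wnt9b* average. Where 1 wt library was left, it was assumed to vary like the other groups. Without wt 1, Rspo2KO 1, Wnt9bKO 2 and DKO 3 together, a set chosen after seeing the data, DKO against Rspo2KO gave 5 calls (22.3%), with 4 in Wnt9bKO against wt (22.3%), 3 in DKO against wt (19.5%) and 7 in the *Wnt9b* average (38.5%). The cause of these changes was not tested.

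The labels share replicate numbers but do not say what a number stands for. Same-numbered libraries deviated from their group means with r from -0.105 to 0.236, above 0.1 in 3 of 15 pairs, and a library was closest to its own number in 24 of 30 cases. Between mutant groups, every library was closest to its own number. The cases that failed all involved wt, whose 2 libraries deviate from their mean by equal and opposite amounts. The reported fit does not use the number. With the replicate number as a block, calls numbered 6 in Wnt9bKO against wt (35% of all genes), 4 in DKO against wt (29.6%), 2 in DKO against Rspo2KO (20.1%), 7 in the *Wnt9b* average (43.6%) and 0 in the 4 others. The block passed *Efnb1* in Wnt9bKO against wt (0.31, adjusted p = 0.0269, range over the alternatives 0.0152 to 0.591) and DKO against wt (0.40, 0.00868, range 0.00654 to 0.391), *Ephb3* in Wnt9bKO against wt (0.50, 0.00496, range 0.00496 to 0.409) and the *Wnt9b* average (0.35, 0.0026, range 0.0026 to 0.221), and *Ephb4* in that average (0.24, 0.0217, range 0.0162 to 0.211). With the block and the GC and length offset they numbered 7, 5, 3 and 8 (35.2%, 31.2%, 21.3% and 44.1% of all genes). *Ephb2* in Wnt9bKO against wt was -0.30 with the offset and -0.29 with offset and block, against 0.09 without. Over all refits of the 10 genes in the 8 comparisons, those named above included, 60 estimates short of the threshold changed sign. With the sign kept, 48 passed it only in the refit and 17 only in the reported fit. Another 2, both of *Ephb2* in Wnt9bKO against wt, passed only in the refit and with the opposite sign. Averaged and interaction results could not be fitted with only the groups compared. *Efna2* was called in no refit.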
